A study of Mus musculus with 9 samples.

Results

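The receptors through which monocytes and macrophages sense attractants were measured in RAW-264.7 cells, a murine monocyte/macrophage line, that carried the transcription factor FoxQ1. The set holds 9 genes, Ccr1, Ccr2, Cxcr3, Cxcr4, Cx3cr1, C5ar1, C3ar1, Fpr1 and S1pr1, taken by symbol or Entrez ID from the 16492 gene rows of the array, and each of them had 1 row. RNA of 5 RAW-FoxQ1 clones and of 4 RAW-vector clones was hybridized to 1 Affymetrix mouse genome array each. RAW-FoxQ1 clones stably carried mouse FoxQ1 in the plasmid pEF6/V5-His TOPO, and RAW-vector clones carried the empty plasmid. All clones grew from single cells and were selected with 6 µg/ml blasticidin S. No further treatment, and no chemoattractant, is named for the cells put on the arrays. The sources used here do not say whether any clones are sisters, and the p-values measure the spread between these clones.

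Chemoattractant receptors are G protein-coupled receptors that signal mainly through Gi proteins and steer a cell along a gradient of their ligand. Chemokine receptors bind small secreted chemokines, the anaphylatoxin receptors C5ar1 and C3ar1 bind fragments released when complement is activated, Fpr1 senses formylated peptides of bacteria and mitochondria, and S1pr1 senses the lipid sphingosine 1-phosphate of blood and lymph. In monocytes, Ccr2 is the receptor for MCP-1, and the paper tested migration of RAW-FoxQ1 and RAW-vector clones towards this chemokine. Cx3cr1 binds the membrane-tethered chemokine fractalkine, and Cxcr4 binds Cxcl12, which holds leukocytes in the bone marrow.

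The values are log2 expression values after quantile normalization across the arrays, so 1 unit is a doubling of signal and all arrays have the same median of 7.49. Foxq1 itself had log2 values of 7.27 to 7.44 in RAW-FoxQ1 clones and of 6.94 to 7.01 in RAW-vector clones. The log2 fold change was 0.39 (standard error 0.040, adjusted p = 4.7e-05 from limma). Whether the probes of this row detect the plasmid's transcript was not tested, so the difference does not measure how strongly the transgene was expressed. The paper reports stable FoxQ1 expression in its clones from staining for the V5 tag. Of 10 macrophage markers, Lyz2, Csf1r, Cd68 and Cd14 had group means of 13.0 to 14.7, whereas Mertk was at 6.10 in RAW-FoxQ1 clones and 6.05 in RAW-vector clones, near the bottom of the array. In this marker list Fcgr1 rose, Adgre1 (8.70 in RAW-FoxQ1 clones and 11.1 in RAW-vector clones), Itgam and Cd68 fell and 6 genes were not called. So 10% of the markers rose and 30% fell, against 19.6% and 21.4% of all gene rows (limma, adjusted p under 0.05). The summed log2 value of the markers lay at 109 to 111 in RAW-FoxQ1 clones and at 111 to 114 in RAW-vector clones. The 19 measured markers of T cells, B cells, granulocytes and fibroblasts had values of 6.15 to 8.20 over all clones, with a median of 6.88. That range gives the signal of genes that a macrophage line is not known for. Of these markers, 2 of 6 for T cells, 1 of 4 for B cells and 1 of 5 for granulocytes were called lower. None was called higher, and the largest decrease was that of Cd79b at a log2 fold change of -0.43 (limma, adjusted p = 7.1e-05). So genes at this dim signal can be called lower too. Poly-A controls are bacterial transcripts meant to be spiked into an RNA sample, and the paper does not say whether they were added here. Their probe sets, taken by name, had lower values on the RAW-FoxQ1 arrays. The mean of 27 control probe sets was 8.01, 7.92, 7.95, 8.04 and 8.38 in clones 7.1 to 7.5. In RAW-vector clones 4 to 7 it was 8.49, 8.64, 8.41 and 8.70 (difference between the groups -0.50, two-sided exact permutation test, p = 0.0159). Values per clone are given below in the same order, clones 7.1 to 7.5 for RAW-FoxQ1 and clones 4 to 7 for RAW-vector.

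Of the 9 receptors, 2 rose, 4 fell and 3 missed the threshold in RAW-FoxQ1 clones. Cxcr3 and Ccr1 rose, and C5ar1, S1pr1, Cxcr4 and Cx3cr1 fell. The background is high in these clones: 40.9% of all gene rows were called at an adjusted p under 0.05, with 19.6% higher and 21.4% lower. By the other measure, groups that lie fully apart, 3 receptors were higher, 3 were lower and 3 overlapped, against 36.1% of all gene rows apart in either direction (17.3% higher and 18.8% lower). The 6 of 9 receptors called stand beside these shares. Since the genes were chosen with results of these data known, no test was made of the set. In bulk RNA, fewer cells with a transcript and less of it per cell cannot be told apart. The median log2 fold change of the 9 receptors was -0.019, against -0.014 over all gene rows, with 4 receptors above 0 and 5 below it. The median size of the change regardless of sign was 0.71 for the receptors and 0.12 over all gene rows.

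**Figure D1:**
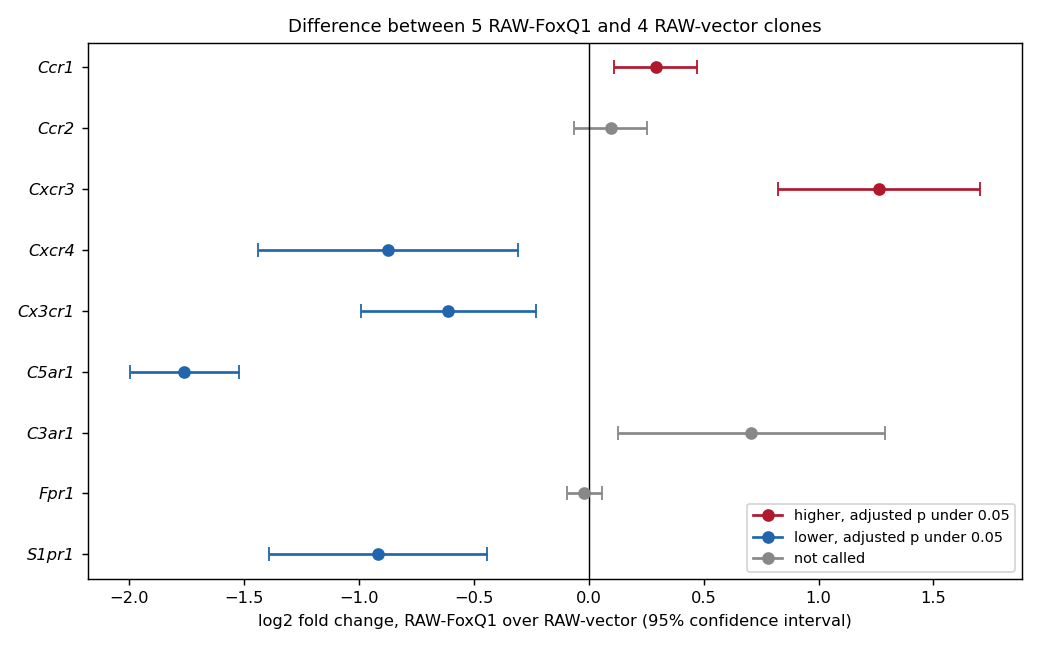
Log2 fold change of each receptor between 5 RAW-FoxQ1 and 4 RAW-vector clones, with its 95% confidence interval from limma. Cxcr3 and Ccr1 lie right of 0 and C5ar1, S1pr1, Cxcr4 and Cx3cr1 left of it, while the interval of C3ar1 excludes 0 although its adjusted p of 0.0532 missed the threshold.

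Among the chemokine receptors Cxcr3, the receptor of the interferon-induced chemokines Cxcl9, Cxcl10 and Cxcl11, rose the most. Its log2 value was 8.44, 8.83, 9.48, 8.44 and 8.56 in RAW-FoxQ1 clones, against 7.40, 7.47, 7.62 and 7.45 in RAW-vector clones. Every RAW-FoxQ1 clone was above every RAW-vector clone, and clone 7.3 was the highest. The values of all RAW-vector clones lie within the range of markers of other cell types, 6.15 to 8.20. Group means were 8.75 ± 0.44 (SD, n = 5 clones) in RAW-FoxQ1 clones and 7.49 ± 0.095 (SD, n = 4 clones) in RAW-vector clones, which is 2.40-fold higher in RAW-FoxQ1 clones. The log2 difference of 1.26 had a standard error of 0.20 and an adjusted p of 6.1e-04 in limma. The exact permutation test over the 126 arrangements of the 9 clones gave p = 0.00794, the smallest p that 5 clones against 4 allow. Without clone 7.3 the log2 fold change was 1.08.

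Ccr1, a receptor of several inflammatory CC chemokines, rose slightly at a low signal. Its log2 value was 6.58, 6.57, 6.86, 6.55 and 6.38 in RAW-FoxQ1 clones, against 6.25, 6.35, 6.28 and 6.31 in RAW-vector clones. The groups did not overlap, but the lowest RAW-FoxQ1 clone, 7.5, lay close to the highest RAW-vector clone, 5. The log2 fold change was 0.29 with a standard error of 0.080, or 1.22-fold (two-sided exact permutation test, p = 0.0159; limma, adjusted p = 0.0156). The means rank at the 17.8 percentile of the array signal in RAW-FoxQ1 clones and at the 6.24 percentile in RAW-vector clones, which is a low signal on this array.

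Ccr2 had values of 6.44, 6.45, 6.79, 6.57 and 6.46 in RAW-FoxQ1 clones, against 6.50, 6.44, 6.43 and 6.42 in RAW-vector clones. The clones of the 2 groups overlapped, and only clone 7.3 and clone 7.4 lay above every RAW-vector clone. The log2 fold change was 0.096, with a 95% confidence interval of -0.062 to 0.25 (limma, adjusted p = 0.326). Its means rank at the 15.8 percentile in RAW-FoxQ1 clones and at the 11.6 percentile in RAW-vector clones. Both means lie within the range of markers of other cell types. By RT-qPCR, the paper reports a tendency to higher Ccr2 in RAW-FoxQ1 clones, which was not statistically significant.

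Cxcr4 and Cx3cr1 fell. Cxcr4 had log2 values of 6.68, 6.38, 6.41, 7.45 and 7.12 in RAW-FoxQ1 clones, against 7.92, 7.75, 7.11 and 7.94 in RAW-vector clones. All of these values lie within the range of markers of other cell types, 6.15 to 8.20. The groups overlapped through RAW-vector clone 6, which lay below RAW-FoxQ1 clones 7.4 and 7.5. The log2 fold change was -0.87 with a standard error of 0.25, or 1.83-fold lower (limma, adjusted p = 0.0197; two-sided exact permutation test, p = 0.0397). The call was lost under the one-way analysis of variance of the methods (adjusted p = 0.0516) and without RAW-vector clone 4, 5 or 7 (adjusted p from limma of 0.0502 to 0.0591), and the log2 fold change was -1.06 without RAW-vector clone 6.

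Cx3cr1, the fractalkine receptor of patrolling monocytes and tissue macrophages, ranked at the 80.1 percentile of array signal in RAW-FoxQ1 clones and at the 87.3 percentile in RAW-vector clones. Its log2 value was 9.05, 9.23, 9.21, 9.44 and 9.34 in RAW-FoxQ1 clones, against 9.58, 10.11, 10.30 and 9.46 in RAW-vector clones. The groups lay just apart, with RAW-FoxQ1 clone 7.4 next to RAW-vector clone 7. The RAW-vector clones formed a high pair, 5 and 6, and a low pair, 4 and 7, so the spread was larger in RAW-vector clones (SD 0.41, n = 4) than in RAW-FoxQ1 clones (SD 0.14, n = 5). The log2 fold change was -0.61 with a standard error of 0.17, or 1.53-fold lower (limma, adjusted p = 0.0160; two-sided exact permutation test, p = 0.00794). Without RAW-vector clone 5 it was -0.53 and the call was lost (adjusted p = 0.0508).

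**Figure D2:**
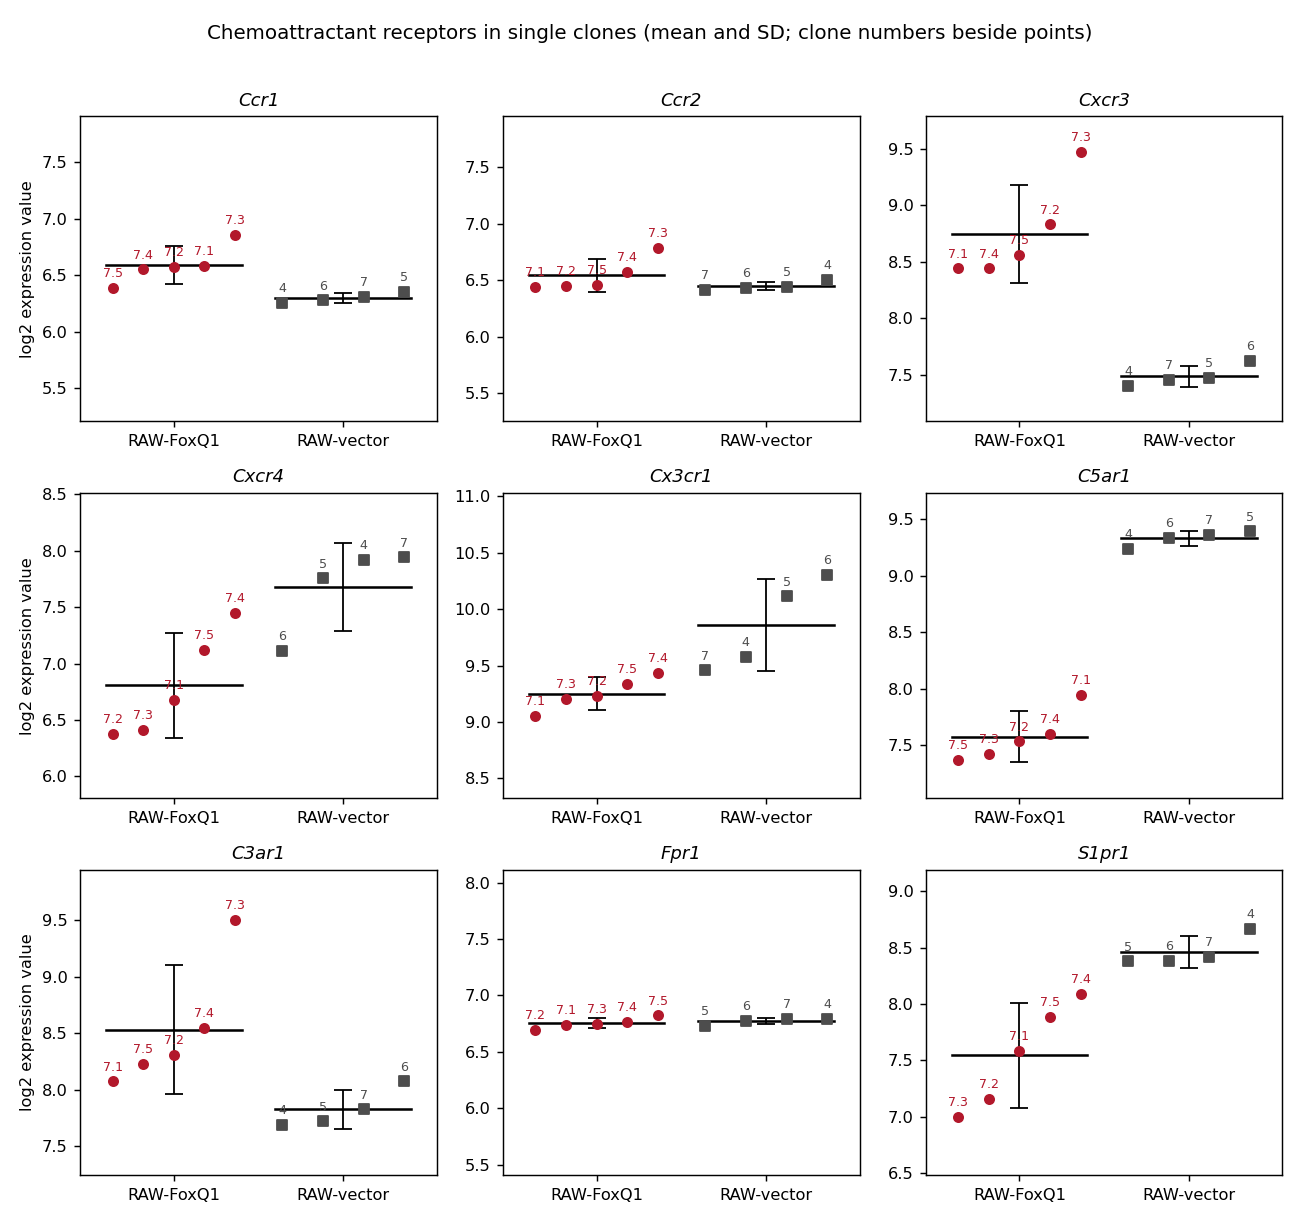
Log2 expression value of each receptor in every clone, RAW-FoxQ1 in red and RAW-vector in grey, with the clone number above each point, ordered by value within a group; long lines are group means and bars 1 SD, and every panel spans the same height on its axis. The 2 groups are far apart for C5ar1 and Cxcr3, overlap for Cxcr4, Ccr2 and Fpr1, and lie close together for Ccr1, Cx3cr1 and C3ar1.

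Of the complement receptors C5ar1 fell and C3ar1 was not called. C5ar1, the main receptor of the anaphylatoxin C5a and a strong driver of phagocyte chemotaxis, had the greatest decrease of the 9 receptors. Its log2 value was 7.95, 7.53, 7.42, 7.60 and 7.37 in RAW-FoxQ1 clones, against 9.24, 9.39, 9.33 and 9.36 in RAW-vector clones. The gap between the groups was wider than the range within either. The values of all RAW-FoxQ1 clones lie within the range of markers of other cell types, 6.15 to 8.20. Group means were 7.57 ± 0.23 (SD, n = 5) in RAW-FoxQ1 clones and 9.33 ± 0.066 (SD, n = 4) in RAW-vector clones, which is 3.38-fold lower in RAW-FoxQ1 clones. The log2 difference of -1.76 had a standard error of 0.11 (limma, adjusted p = 2.0e-06; two-sided exact permutation test, p = 0.00794). Its change was larger in size than that of 99.2% of all gene rows.

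C3ar1, the receptor of the anaphylatoxin C3a, had values of 8.07, 8.31, 9.50, 8.55 and 8.23 in RAW-FoxQ1 clones, against 7.69, 7.72, 8.07 and 7.82 in RAW-vector clones. Clone 7.3 stood well above the other RAW-FoxQ1 clones, and clone 7.1 was level with RAW-vector clone 6 at the precision printed. The values of all RAW-vector clones lie within the range of markers of other cell types, 6.15 to 8.20. The log2 fold change of 0.71 (standard error 0.26, 95% confidence interval 0.13 to 1.29) missed the threshold (limma, adjusted p = 0.0532), while the two-sided exact permutation test had p = 0.0159. Without clone 7.3 the log2 fold change was 0.46 with a smaller standard error of 0.11, with an adjusted p from limma of 0.0097, and without clone 7.1 it was 0.82 (adjusted p = 0.0337), so leaving out either clone changes the call.

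S1pr1, which draws leukocytes out of tissue towards blood and lymph, also fell. Its log2 value was 7.58, 7.16, 7.00, 8.09 and 7.89 in RAW-FoxQ1 clones, against 8.67, 8.38, 8.38 and 8.41 in RAW-vector clones. No clone of one group reached the other, and clones 7.4 and 7.5 came closest to the RAW-vector clones. The values of all RAW-FoxQ1 clones lie within the range of markers of other cell types, 6.15 to 8.20. The log2 fold change was -0.92 with a standard error of 0.21, or 1.89-fold lower (limma, adjusted p = 0.0062; two-sided exact permutation test, p = 0.0159). For S1pr2, another receptor of this lipid, the log2 value was 8.88 ± 0.35 (SD, n = 5) in RAW-FoxQ1 clones and 9.30 ± 0.085 (SD, n = 4) in RAW-vector clones, with an adjusted p of 0.0580 from limma. The S1pr2 groups lay apart, at 8.29 to 9.16 in RAW-FoxQ1 clones and at 9.23 to 9.41 in RAW-vector clones.

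Fpr1 had nearly the same value on all 9 arrays, with 6.74, 6.70, 6.75, 6.77 and 6.82 in RAW-FoxQ1 clones, against 6.79, 6.73, 6.78 and 6.79 in RAW-vector clones. The difference of -0.019 had a 95% confidence interval of -0.095 to 0.057 (adjusted p = 0.71 from limma). Its means rank at the 25.9 percentile in RAW-FoxQ1 clones and at the 26.9 percentile in RAW-vector clones, within the range of markers of other cell types.

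Within the groups, the receptors varied more between clones than most genes did on RAW-FoxQ1 arrays. The median SD of the 9 receptors was 0.23 in RAW-FoxQ1 clones and 0.095 in RAW-vector clones, against 0.073 and 0.075 over all gene rows in the same order of groups. The SD of C3ar1 exceeded that of 99.3% of all gene rows in RAW-FoxQ1 clones, and the SDs of Cxcr4, S1pr1 and Cxcr3 that of 98.8%, 98.8% and 98.5%. In RAW-vector clones Cx3cr1 and Cxcr4 were the variable ones, above 99.1% and 99.0% of all gene rows. Fpr1 was above 23.6% in RAW-FoxQ1 clones and above 7.68% in RAW-vector clones.

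The RAW-FoxQ1 clones did not rank alike for all receptors. Clone 7.3 was the highest RAW-FoxQ1 clone for 4 of the 9 receptors, Ccr1, Ccr2, Cxcr3 and C3ar1, which are those with a fold change above 0, and the lowest for S1pr1. Relative to the RAW-vector mean it was higher by 1.99 for Cxcr3 and by 1.68 for C3ar1, against 0.25 for C3ar1 in clone 7.1. Clones 7.4 and 7.5 were the highest RAW-FoxQ1 clones for Cxcr4 and S1pr1 and lay closest to the RAW-vector clones there, with S1pr1 at -0.37 and -0.57 from the RAW-vector mean, against -1.46 in clone 7.3. The same 2 clones had the highest poly-A spike-in values among RAW-FoxQ1 clones, 8.04 and 8.38, and the part of this in the ranking was not tested. limma's array weights, estimated from all genes, were lowest for RAW-FoxQ1 clone 7.3 (0.50) and RAW-vector clone 6 (0.49), against 0.99 to 1.61 for the other arrays.

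**Figure D3:**
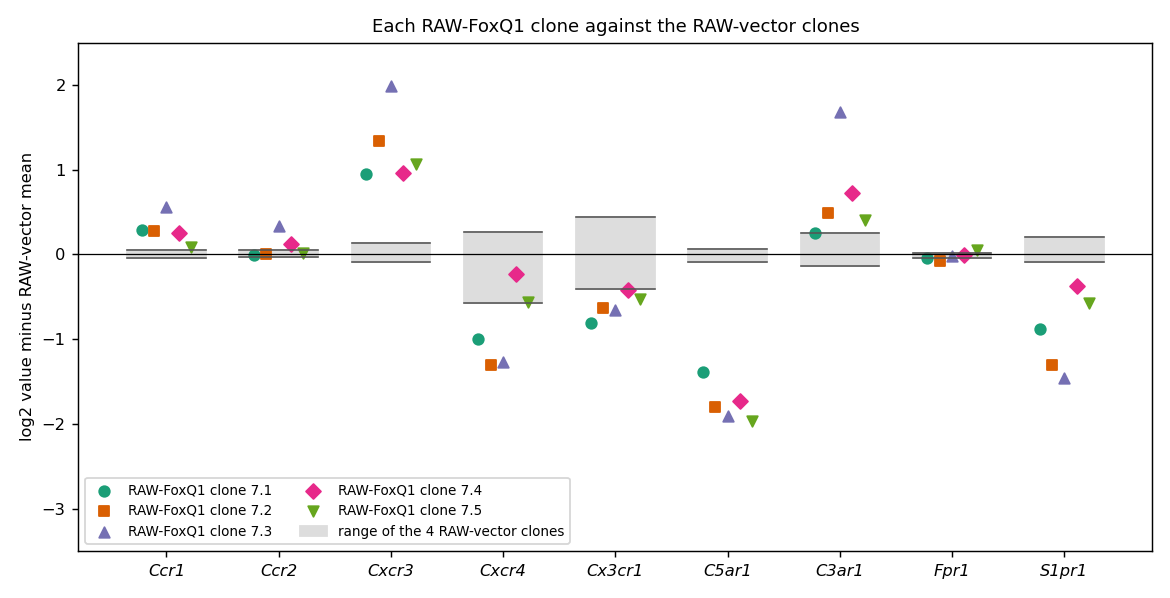
Log2 value of each RAW-FoxQ1 clone minus the RAW-vector mean, for each receptor, 1 symbol per clone; grey boxes give the range of the 4 RAW-vector clones around their mean. Clone 7.3 is the highest symbol for Ccr1, Ccr2, Cxcr3 and C3ar1 and the lowest for S1pr1, where it lies at -1.46.

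Most of these calls depended on a covariate. With the poly-A mean of each array as a covariate, C5ar1 alone of the 9 receptors was called, at a log2 fold change of -1.88 (adjusted p = 0.0010 from limma). Cx3cr1 had a value of -0.73 and Cxcr3 one of 0.87, while S1pr1 was at -0.41, C3ar1 at 0.23, Ccr1 at 0.088 and Cxcr4 at -0.061. The covariate differs between the groups, with no overlap of the poly-A values, and it widened the standard error, to 0.37 with it against 0.20 without it for Cxcr3 and to 0.41 against 0.25 for Cxcr4, so a call can be lost without a smaller difference, as for Cx3cr1. Whether the level of the poly-A controls bears on the receptor values was not tested.

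**Figure D4:**
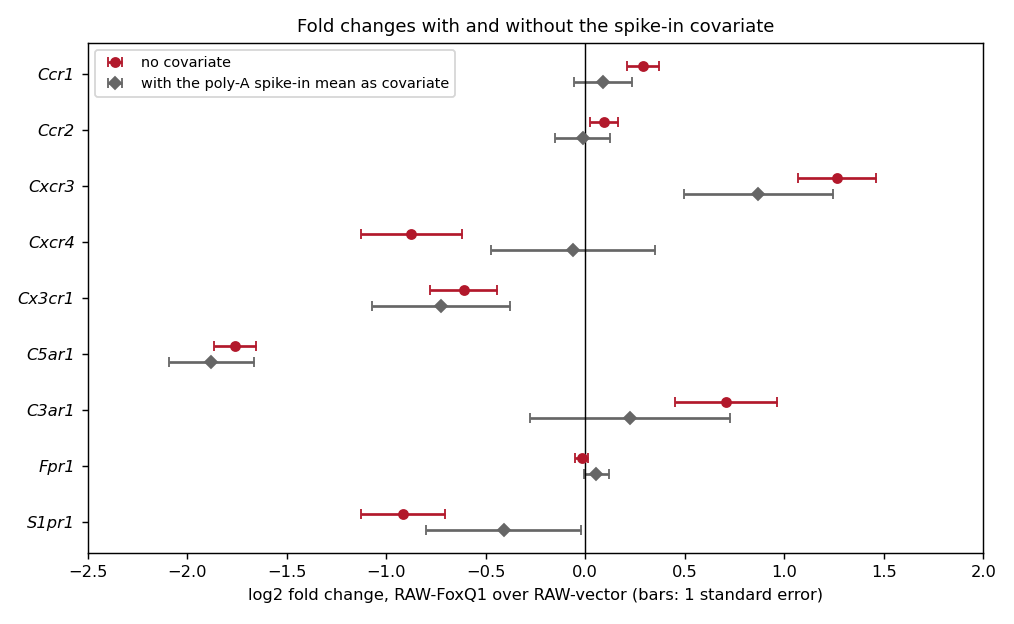
Log2 fold change of each receptor with no covariate (red circles) and with the poly-A spike-in mean as a covariate (grey diamonds), with bars of 1 standard error. C5ar1 is at -1.88 with the covariate and -1.76 without it, while Cxcr4 moves to -0.061 with the covariate, against -0.87 without it.

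Other chemokine receptors showed little. Of 17 measured, none rose, against 19.6% of all gene rows, and 2 fell (11.8%, against 21.4%). The other 15 were not called, and the median log2 fold change of the 17 was -0.017. Those that fell were Ccrl2, an atypical receptor that presents chemerin, at a log2 fold change of -0.27 (adjusted p = 0.0240 from limma), and Ackr1, a chemokine-binding decoy best known from red blood cells and venules, at -0.18 (adjusted p = 0.0028). The group means of all 17 lay between 6.06 and 7.35 in RAW-FoxQ1 clones and between 6.01 and 7.59 in RAW-vector clones, no higher than the markers of other cell types reached. Of 16 other chemoattractant receptors none rose and 3 fell (18.8%, against 21.4% of all gene rows), with a median of -0.060. These were P2ry2, a receptor for extracellular ATP and UTP, at -0.23, Gpr183, the oxysterol receptor, at -0.22, and Ltb4r1, the leukotriene B4 receptor, at -0.17. Ccrl2, Gpr183 and P2ry2 lost their call when single clones were left out, at values of -0.22 to -0.27 for Ccrl2, -0.15 to -0.22 for Gpr183 and -0.18 to -0.24 for P2ry2. All 3 also lost it under the one-way analysis of variance (adjusted p of 0.0513, 0.0565 and 0.0749).

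Among 24 genes of ligands and their handling, 3 rose (12.5%, against 19.6% of all gene rows) and 3 fell (12.5%, against 21.4%). The other 18 missed the threshold, and the median log2 fold change of the 24 was 0.0029. Cxcl2, a neutrophil-attracting chemokine, rose by 0.91 on the log2 scale (adjusted p = 0.0023 from limma), Ccl9, a ligand of Ccr1, by 0.57 (adjusted p = 0.0010) and Cxcl10, a ligand of Cxcr3, by 0.43 (adjusted p = 0.0212). Cxcl10 had log2 values of 6.77, 6.70, 7.38, 7.01 and 7.12 in RAW-FoxQ1 clones, against 6.49, 6.58, 6.58 and 6.63 in RAW-vector clones. The groups were apart, at a low signal, and its call was lost without RAW-vector clone 4 (log2 fold change 0.40, adjusted p = 0.0598) and under the one-way analysis of variance (adjusted p = 0.0518). The other ligands of Cxcr3 differed by -0.016 for Cxcl9 and 0.013 for Cxcl11 and were not called. Ccl2, which encodes MCP-1, had a value of 7.72 ± 0.35 (SD, n = 5) in RAW-FoxQ1 clones and 7.39 ± 0.056 (SD, n = 4) in RAW-vector clones (limma, adjusted p = 0.134). Its groups lay just apart, with RAW-FoxQ1 clone 7.1 at 7.47 next to RAW-vector clone 5 at 7.46, and clone 7.3 was the highest at 8.33. The decreases were those of the sphingosine 1-phosphate lyase Sgpl1 at -0.39, of Anxa1, whose product and its peptides act on formyl peptide receptors, at -0.37, and of Cx3cl1, fractalkine, at -0.099, whose call survived only the loss of RAW-vector clone 6 or of RAW-FoxQ1 clone 7.2 and not that of another clone (adjusted p of 0.0568 to 0.0874). The transcripts of complement C3 and of Hc, which encodes C5, were not called, at -0.076 and 0.022.

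Downstream of the receptors, 4 of 28 genes of Gi coupling and signalling to movement rose and 6 fell, with a median log2 fold change of -0.012. These shares of 14.3% and 21.4% stand beside 19.6% and 21.4% over all gene rows. Rac2, the haematopoietic Rac GTPase that drives actin assembly at the leading edge, had log2 values of 9.75, 9.64, 9.39, 9.73 and 9.65 in RAW-FoxQ1 clones, against 10.53, 10.54, 10.60 and 10.52 in RAW-vector clones. These groups were far apart, and the difference was -0.92 ± 0.069 (standard error; limma, adjusted p = 7.9e-06). The G protein subunit Gng2 fell by 0.67, the regulatory subunit Pik3r5 of PI3K gamma by 0.54 and the phospholipase Plcb3 by 0.43 on the log2 scale, with adjusted p-values from limma of 1.1e-04 to 0.0043. Among those that rose were the small GTPase Rap1b at 0.34, the exchange factor Vav1 at 0.33 and the G protein chaperone Ric8a at 0.15, of which Ric8a lost its call when any one of RAW-vector clones 4, 6 and 7 and of RAW-FoxQ1 clones 7.2 and 7.3 was left out (adjusted p of 0.0604 to 0.0787).

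Of 17 genes of receptor desensitisation 4 rose (23.5%, against 19.6% of all gene rows) and 5 fell (29.4%, against 21.4%). The median log2 fold change of the 17 was -0.031. RGS proteins speed up the hydrolysis of GTP on G alpha subunits and thereby end the signal. Rgs1 rose by 1.80 and Rgs19 by 0.68, whereas Rgs10 fell by 0.90 on the log2 scale, so members of this family went both ways. Grk5, a kinase that phosphorylates active receptors, rose by 0.44 and Rgs14 by 0.32, while Grk2, a kinase of the same family, fell by 0.32, the arrestin Arrb1 by 0.71 and the ubiquitin ligase Itch, which in human cells sorts CXCR4 for degradation, by 0.57. Adjusted p-values from limma for these genes ran from 6.0e-05 for Rgs10 to 0.0143 for Arrb1. With the poly-A covariate, 7 of the 27 genes that the naming rule took from the 5 related lists kept their call, namely Sgpl1, Gng2, Rac2, Rgs1, Rgs10, Rgs19 and Itch.

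**Figure D5:**
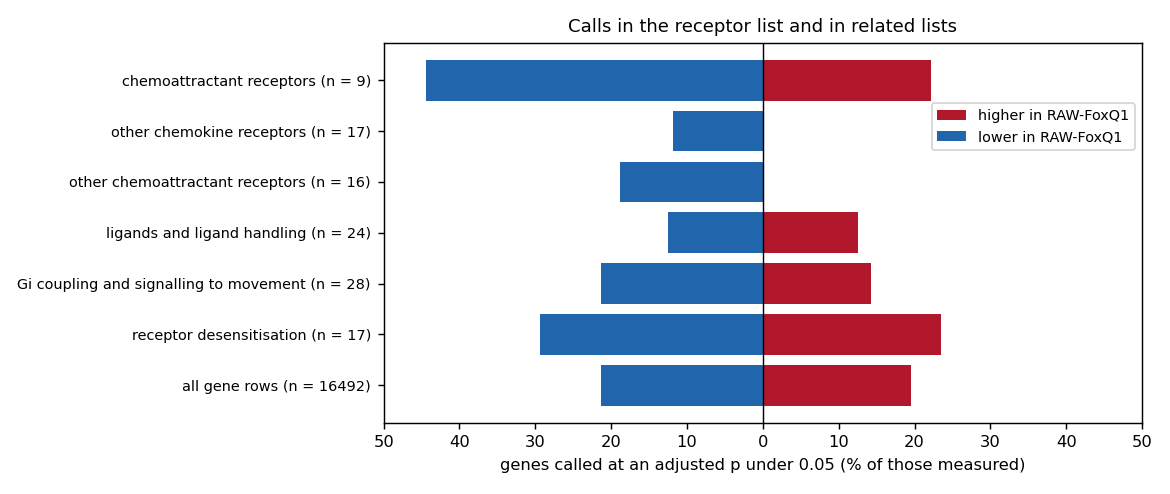
Share of measured genes called lower (left, blue) and higher (right, red) in RAW-FoxQ1 clones by limma (adjusted p under 0.05), for the receptors, 5 related lists and all gene rows; n is the number of genes measured. The receptors have 4 lower and 2 higher of 9, the 17 other chemokine receptors have none higher, and over all gene rows the shares are 21.4% and 19.6%.

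The genes most like each called receptor were found by the root mean square difference of log2 values over the 9 clones, after each gene was centred on its mean. Cxcr3 was closest to D6Wsu163e (0.12), Tfpi (0.12) and Abtb2 (0.13), against a spread of Cxcr3 itself around its mean of 0.69. C5ar1 was closest to Gm5617 (0.071), Abhd6 (0.12) and Gchfr (0.12), against a spread of 0.89. For S1pr1 the closest were Smpd2 (0.11), Cd302 (0.14) and Napsa (0.15), for Cx3cr1 they were Nfat5 (0.095), Slc6a6 (0.11) and Spen (0.12), and for Ccr1 Dnajc12 (0.044), Senp2 (0.054) and Lrrc8d (0.056). Cxcr4 had the least close neighbours, Lrrc8c (0.23), Hpgds (0.25) and Arsb (0.25), against a spread of 0.58. With so large a share of genes moved between the groups, such likeness includes the group difference and is given as a description.

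FoxQ1 is a forkhead factor, and forkhead proteins share a DNA core that was looked for as TGTTTA, on either strand, in the 250 bases before the transcript start that a RefSeq promoter table gives for each receptor (GRCm38.p6). Entries were found for 8 receptors. The windows of 6 lie outside the annotated gene, whereas that of Ccr2 lies inside it with all 250 bases and that of C5ar1 with 202, since RefSeq has the genes begin further upstream than the start used, so these 2 windows do not show the sequence before the gene. Of the 8 windows 2, those of Cxcr3 and Fpr1, held 1 match each, against 12% of 32851 promoter windows of the same length. The match of Cxcr3 lay 200 to 195 bases before the start and that of Fpr1 90 to 85 bases before it, both in the sense direction. A match is a description and not a bound site. The windows that held it, of the receptor that rose the most and of the one that had nearly the same value on all arrays, are shown 5′ to 3′ in the direction of the gene, with the match in capitals.
Cxcr3, chrX:101734148-101734397, minus strand: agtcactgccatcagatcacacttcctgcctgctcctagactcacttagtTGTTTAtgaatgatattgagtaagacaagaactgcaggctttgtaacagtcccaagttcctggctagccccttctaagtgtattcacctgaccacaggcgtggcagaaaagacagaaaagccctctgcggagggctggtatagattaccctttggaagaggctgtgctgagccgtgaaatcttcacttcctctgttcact
Fpr1, chr17:17883940-17884189, minus strand: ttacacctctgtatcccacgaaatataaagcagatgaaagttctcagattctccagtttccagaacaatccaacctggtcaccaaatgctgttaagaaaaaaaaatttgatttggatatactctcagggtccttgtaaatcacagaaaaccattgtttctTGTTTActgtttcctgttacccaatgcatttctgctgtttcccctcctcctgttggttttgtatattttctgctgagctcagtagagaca
The log2 fold changes of Cxcr3 and Fpr1 were 1.26 and -0.019, and Fpr1 was at a low signal in both groups. Whether the match bears on either value was not tested.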

How the data were processed

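The authors deposited log2 expression values from Affymetrix mouse genome arrays. Probes had been regrouped by Entrez gene and arrays quantile normalized, and the submitters' processing notes name RMA. The sorted values of all 9 arrays are identical, so the arrays cannot show a change common to all genes. The number of arrays limits the precision.

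The 64 control rows among 16556 were not tested. Symbols came from the Entrez ID in the row name through RefSeq (16240 rows) or the platform annotation (18 more), and 234 rows stay unnamed. Fpr1 was matched by its Entrez ID only. The 16492 gene rows were fitted with limma 3.58.1 in R 4.3.3 (lmFit, eBayes) on group alone, and the threshold was 0.05 after Benjamini-Hochberg adjustment over all rows. The fit was tested on simulated data.

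The members, the gene lists and the rule for named genes were chosen with earlier results of these data known. All receptors were named, of each related list up to 4 called genes per direction by size, and for each called receptor the 3 closest genes. Of these, 1 gene is counted but not reported here. S1pr2, Cxcl9, Cxcl11, Ccl2, C3 and Hc were named after their values were seen. The alternatives were the one-way analysis of variance of the methods, array weights, trended and robust eBayes, leaving out genes below the 40 percentile of mean signal, the poly-A spike-in mean as a covariate, an added minimum log2 fold change of 1, and each clone left out in turn. For genes of the related lists they were added after the data were seen.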

Additional observations from a re-analysis of the deposited data

Results flagged for a closer look

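S1pr1 in RAW-vector clone 4 stood out. Its log2 value was 8.67, against 8.38 to 8.41 in the other RAW-vector clones, and the gap to the nearest clone was 0.872 of the range of the group, above Dixon's 95% critical value for 4 samples. It was the only one of 18 groups of clones, 9 receptors in each of 2 groups, to pass that value, and chance flags about 1 in 20. Without this clone the log2 fold change of S1pr1 was -0.85 (adjusted p = 0.0224 from limma), against -0.92 with it.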

How the results depend on the processing

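C5ar1 kept its direction and its call under all 14 alternatives, with log2 fold changes of -1.85 to -1.71 when 1 clone was left out. With the added minimum log2 fold change set aside, Ccr1, Cxcr3 and S1pr1 lost their call only with the poly-A covariate, at 0.088, 0.87 and -0.41. Cx3cr1 (-0.73) and Cxcr4 (-0.061) lost theirs with that covariate too. Of receptors that were not called, Ccr2 turned to -0.013 and Fpr1 to 0.055 there. With that covariate 0 receptors were called higher (limma) and 1 lower, and of all genes 1461 higher and 1274 lower, against 2 and 4 receptors and 3225 and 3523 genes without it. Under the one-way analysis of variance Cxcr4 (-0.87) had an adjusted p of 0.0516. C3ar1 passed the threshold with array weights (0.64), when dim genes were left out (0.71, adjusted p = 0.0334) and without RAW-FoxQ1 clone 7.1 (0.82) or 7.3 (0.46). Leaving out 1 clone gave -1.06 to -0.77 for Cxcr4 (-0.85 to -0.79 where the call was lost), -0.75 to -0.46 for Cx3cr1, 0.46 to 0.82 for C3ar1, and 2 to 4 receptors called lower. With a log2 fold change of at least 1 as well, which removes smaller changes by its construction, 1 receptor was higher and 1 lower, and 381 genes were higher and 302 lower. The cause of the other shifts was not tested. Ccr1, Ccr2 and Fpr1 lay below the 40 percentile and have no value under that filter, and averaging rows of a gene gave no other value because each receptor has 1 row. All 27 genes that the naming rule took from the related lists kept their sign, 21 kept their call whichever clone was left out, and 7 kept it with the poly-A covariate. No paired analysis was possible because the groups share no clone number. The dim signal of Ccr1, Ccr2 and Fpr1 limits what the arrays can show for them.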
